A study of Mus musculus with 178 samples.

Results

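The genes described here are 9 components of the T cell receptor machinery: the CD3 subunits Cd3d, Cd3e, Cd3g and Cd247, the kinases Lck and Zap70, the adaptor Lat, and the surface glycoproteins Cd2 and Cd5. They were chosen by gene symbol from the 55450 genes of the deposited count table, each symbol matched 1 row, and all 9 passed the low-count filter that left 13688 genes in the fit over all libraries. Bulk RNA-seq had been done on whole blood of 45 C57BL/6J mice, with 178 libraries, and these mice carried orthotopic 4MOSC tumors, a syngeneic model of oral squamous cell carcinoma, and were all given an antibody against PD-1. Blood was drawn on Day 4, before treatment, and on the on-treatment Days 9, 17 and 24. The groups were 15 responders, with 15, 15, 14 and 15 libraries on the 4 days, and 30 non-responders, with 29, 30, 30 and 30. No arm without tumor or without the antibody was analysed here, so a change after Day 4 cannot be assigned to treatment, tumor growth, repeated bleeding or time. Response had been assigned by the authors from tumor size, and the labels give neither the age nor the sex of single mice.

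The T cell receptor has no signalling domain of its own. It is carried to the cell surface together with CD3 dimers, formed by the products of Cd3d, Cd3e and Cd3g, and a zeta chain dimer, the product of Cd247, whose tails hold the tyrosine motifs that signal. On engagement the kinase LCK phosphorylates these motifs, ZAP70 docks on them, and ZAP70 phosphorylates the membrane adaptor LAT, which gathers the enzymes of the downstream pathways. CD2 is an adhesion and costimulatory receptor that mouse B cells and natural killer cells carry as well, and CD5 dampens receptor signalling. PD-1, the target of the antibody, counteracts these early phosphorylation steps. In bulk blood, fewer T cells and less of a message per T cell cannot be told apart.

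On the GRCm38 build, Cd3g, Cd3d and Cd3e lie in a cluster of 40056 bases on chromosome 9. Cd3g (chr9:44969572-44980431, minus strand) and Cd3d (chr9:44981786-44987339, plus strand) point away from each other with 1355 bases between their starts, and Cd3e (chr9:44998740-45009627, minus strand) runs toward Cd3d. Cd247 (chr1:165788681-165877277, plus strand) and Zap70 (chr1:36761798-36782818, plus strand) lie on chromosome 1, Cd2 (chr3:101275899-101287939, minus strand) on chromosome 3, Lck (chr4:129548344-129573641, minus strand) on chromosome 4, Lat (chr7:126363824-126369570, minus strand) on chromosome 7 and Cd5 (chr19:10717116-10739002, minus strand) on chromosome 19. The exons of Cd247 share 3007 of 5329 bases with exons of Pou2f1 on the other strand. Strand-specific counting is not stated in the sources used here, so reads from those bases may come from either gene. Cd3e shares 135 of 4080 exonic bases with the antisense gene Gm48719, and Cd3d, Cd3g, Cd2 and Cd5 overlap no other annotated gene.

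The upstream sequences of the 3 clustered CD3 genes are shown because these genes lie side by side and were lower on Day 9. All the genes described here were lower on that day, so this did not set the 3 apart. The upstream sequence of Lat is shown because this gene had the largest rise from Day 9 to Day 17. Each is the 250 bases before the RefSeq start (build GRCm38.p6), read 5′ to 3′ on the gene's strand. Capitals mark matches, on either strand, to the ETS motif AGGAAG, the TCF/LEF motif CTTTGA, the RUNX motif TGTGGT, the E box CAGCTG or the GATA motif AGATAA, and no matches overlapped.
Cd3g, chr9:44980432-44980681, minus strand: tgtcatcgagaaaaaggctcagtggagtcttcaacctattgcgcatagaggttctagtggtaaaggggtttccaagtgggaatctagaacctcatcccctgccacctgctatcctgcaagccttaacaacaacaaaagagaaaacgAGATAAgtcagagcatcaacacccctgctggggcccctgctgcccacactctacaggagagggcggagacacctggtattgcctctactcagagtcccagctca
Cd3d, chr9:44981536-44981785, plus strand: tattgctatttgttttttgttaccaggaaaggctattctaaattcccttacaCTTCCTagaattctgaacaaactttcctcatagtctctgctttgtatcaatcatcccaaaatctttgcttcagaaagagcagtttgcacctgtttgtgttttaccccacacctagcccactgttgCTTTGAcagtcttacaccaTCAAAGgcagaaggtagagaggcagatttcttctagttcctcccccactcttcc
Cd3e, chr9:45009612-45009861, minus strand: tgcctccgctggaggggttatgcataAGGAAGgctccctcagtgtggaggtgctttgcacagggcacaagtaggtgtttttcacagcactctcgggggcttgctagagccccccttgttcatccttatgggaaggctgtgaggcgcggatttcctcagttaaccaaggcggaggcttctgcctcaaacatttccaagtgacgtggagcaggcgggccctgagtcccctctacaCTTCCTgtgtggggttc
Lat, chr7:126369569-126369818, minus strand: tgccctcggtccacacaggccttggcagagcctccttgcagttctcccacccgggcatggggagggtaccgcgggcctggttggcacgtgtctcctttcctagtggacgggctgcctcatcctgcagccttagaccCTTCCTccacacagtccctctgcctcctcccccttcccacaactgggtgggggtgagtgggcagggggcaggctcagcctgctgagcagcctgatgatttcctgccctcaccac

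RefSeq upstream sequences were found for 8 of the 9 genes, with 11 starts in all, and counts of genes take the first start listed for each. The ETS letters occurred upstream of 7 of these 8 genes, Cd3g being the one without them, and in 29.5% of 32851 mouse promoters searched over the same 250 bases. The TCF/LEF letters were found for 2 of the 8 genes, Cd3d, which held them at 2 places, and Zap70, and in 13.8% of promoters. The GATA letters were found for Cd3g and in 9.99% of promoters, the RUNX letters for Lck (and at the second start of Zap70) and in 14.0%, and the E box for none of the 8 and in 13.0%. These are letter matches and were not tested as binding sites.

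Haemoglobin genes took 68.7% to 88.0% of the counts of a library, which left 4535309 to 22174654 other counts out of totals of 26058944 to 82208651. Each of the 9 genes was detected in each of the 178 libraries. Their median counts per library ran from 352 for Zap70 to 1424.5 for Lck, and the lowest count was 18, for Zap70 in the Day 24 library of non-responder 29. That library stood apart, with a TMM scaling factor of 0.0848 against a median of 1.05, and results that rest on it were repeated without it. The Day 17 library of non-responder 24 carries a responder label whereas the other 3 libraries of that mouse are labelled as non-responder. It was counted as a non-responder, and results that it enters were repeated without it. Results other than the ratios to Cd3e were also repeated with the library as labelled. Mouse identification numbers had 3 digits for 23 non-responders and 4 responders and 4 digits for 7 non-responders and 11 responders. What separates these 2 number series is not given in the labels. Comparisons between groups and between days were therefore repeated within each, but not the comparison of changes between the groups.

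Compared per transcript length, in the deposited TPM (a share of all transcripts, scaled for transcript length), the order of the median levels over all libraries was Cd2 at 9.22, Lck at 6.82, Cd3g at 5.97, Lat at 5.52, Cd247 at 3.42, Cd3e at 3.34, Cd3d at 2.60, Cd5 at 1.87 and Zap70 at 1.77 TPM. Cd2 had the highest median in each of the 8 groups of day and response. Lat exceeded Cd247 in 178 of 178 libraries, by 0.73 ± 0.19 on the log2 scale (mean ± SD), and Cd3d exceeded Cd5 in 178 of 178. In this order, 3 neighbouring pairs did not differ beyond their spread. Cd3g exceeded Lat in 107 libraries with a mean log2 ratio of 0.06 ± 0.22, Cd247 exceeded Cd3e in 109 with 0.04 ± 0.14, and Cd5 exceeded Zap70 in 102 with 0.03 ± 0.21. In the deposited TPM the 3 CD3 dimer subunits were therefore listed at unequal levels, with Cd3g at the top. The order depends on the lengths behind the TPM, which are not given in the sources used here. Median counts were 597.5 for Cd3g, 544.5 for Cd3e and 448 for Cd3d, with annotated exonic lengths of 3269, 4080 and 1815 bases. Per annotated exonic base, Cd3d and not Cd3g would come first.

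**Figure D1:**
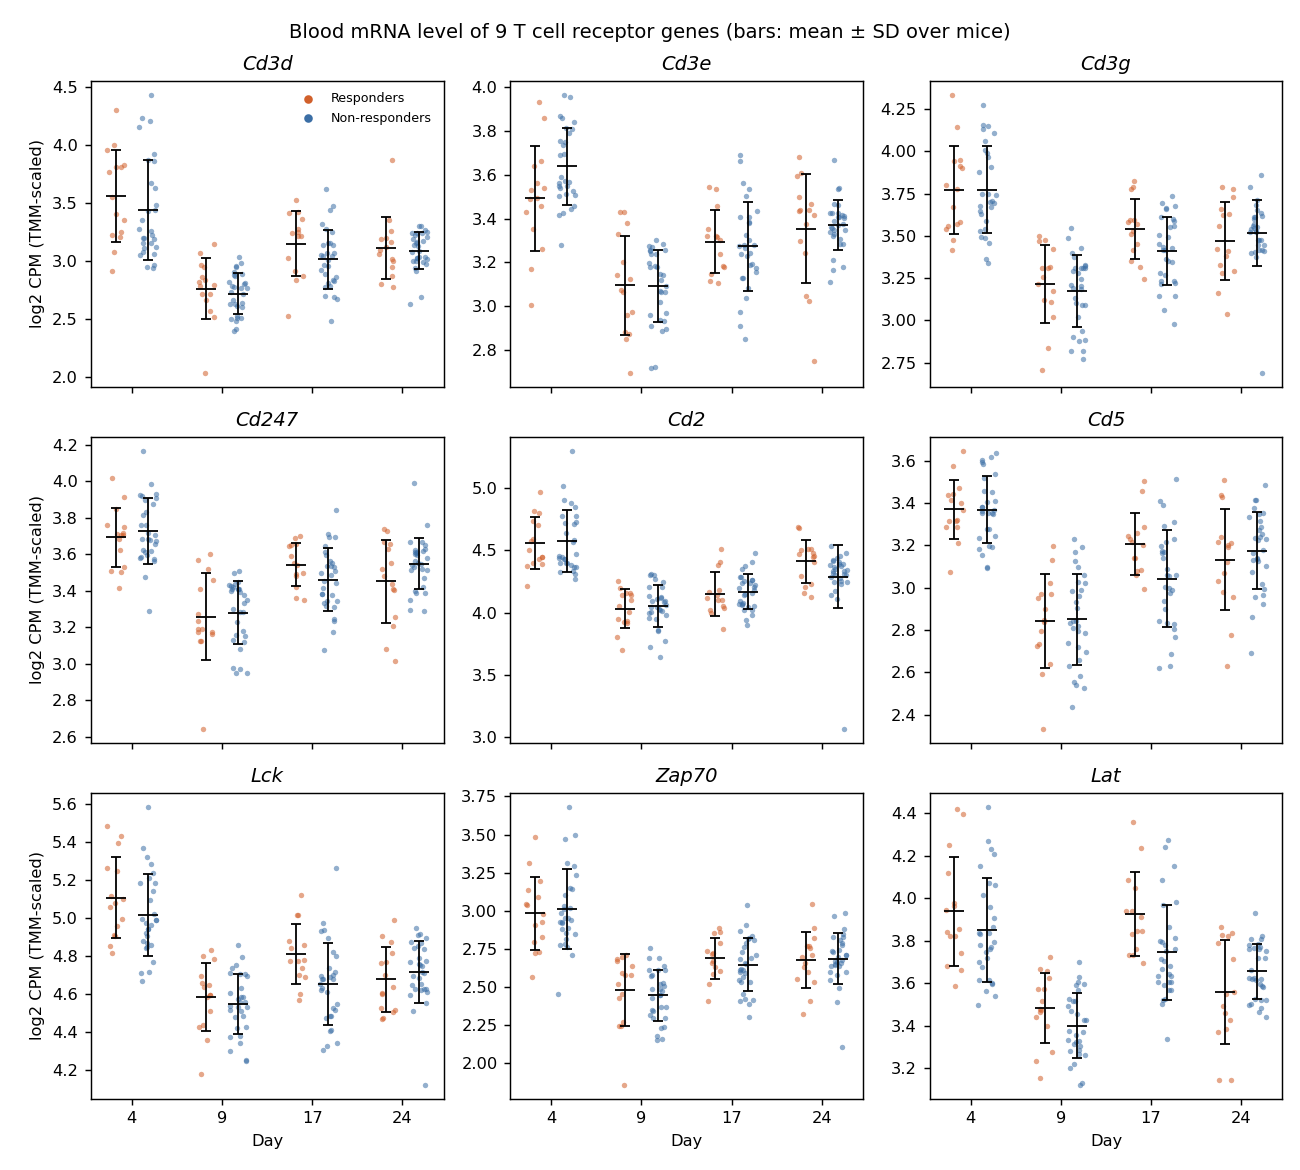
TMM-scaled log2 CPM (counts relative to the scaled library size) of the 9 genes in each library, by day, with responders in orange and non-responders in blue; black bars are the mean ± SD over mice. In both response groups each gene was highest on average on Day 4 and lowest on Day 9, and Lat in responders had nearly the same mean on Days 4 and 17.

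The first question was how the receptor machinery changed once treatment had begun. All 9 genes were lower on Day 9 than on Day 4 in both response groups. In responders, all 9 passed the threshold of an adjusted p of at most 0.05 (edgeR quasi-likelihood test, Benjamini-Hochberg over all genes tested), beside 14.2% of the 12560 genes tested that were called lower in the same comparison. In non-responders all 9 were called lower as well, beside 27.5% of 13009 genes. The median log2 fold change of the 9 genes was -0.50 in responders and -0.54 in non-responders, while the median over all genes tested was 0.01 and -0.01.

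Among the CD3 subunits, Cd3d (delta chain) fell the most. Its log2 CPM in responders ran from 2.92 to 4.31 with a median of 3.55 on Day 4, and from 2.04 to 3.15 with a median of 2.79 on Day 9. In non-responders it ran from 2.95 to 4.43 with a median of 3.26 on Day 4, and from 2.40 to 3.04 with a median of 2.75 on Day 9. The ranges overlapped only at the low end of Day 4, and the gene was lower on Day 9 in 15 of 15 responders and in 29 of 29 non-responders with both libraries. The fall was 1.76-fold in responders (log2 fold change -0.81 ± 0.11 SE, edgeR adjusted p = 4.3e-07) and 1.70-fold in non-responders (-0.77 ± 0.07, adjusted p = 1.87e-16).

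Cd3e (epsilon chain), the subunit shared by both CD3 dimers, fell by 0.39 ± 0.08 on the log2 scale in responders and by 0.55 ± 0.04 in non-responders. Its log2 CPM in non-responders ran from 3.28 to 3.97 on Day 4 and, on Day 9, from 2.72 to 3.30, so that the ranges only touched. In responders it ran from 3.01 to 3.93 and then from 2.69 to 3.43, with a lower value on Day 9 in 13 of 15 mice. Cd3g (gamma chain) fell by 0.55 ± 0.08 in responders and by 0.61 ± 0.06 in non-responders. Cd247 (zeta chain) fell by 0.42 ± 0.07 and 0.45 ± 0.04. Pou2f1, the gene that shares exonic bases with Cd247, had log2 fold changes of 0.02 (edgeR adjusted p = 0.915) and -0.07 (adjusted p = 0.379) in the same comparisons. It was looked up after the values of Cd247 were seen. In later comparisons Pou2f1 did change. On Day 24 it was higher than on Day 4, by 0.41 in responders (edgeR adjusted p = 0.000663) and 0.15 in non-responders (adjusted p = 0.0362), while Cd247 was lower. From Day 17 to Day 24 it rose by 0.48 in responders (edgeR adjusted p = 2.37e-05).

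The transcripts of the signalling proteins were lower on Day 9 as well. Lck, the kinase that starts the cascade, ran in responders from 4.82 to 5.48 log2 CPM on Day 4 and from 4.18 to 4.83 on Day 9, and was lower on Day 9 in 15 of 15 responders and 29 of 29 non-responders. Its log2 fold change was -0.52 ± 0.07 in responders and -0.48 ± 0.05 in non-responders. Zap70 changed by -0.49 ± 0.07 and -0.57 ± 0.05, and Lat by -0.46 ± 0.08 and -0.46 ± 0.05. The surface receptors did the same. Cd2 changed by -0.52 ± 0.07 in responders and -0.54 ± 0.05 in non-responders, and Cd5 by -0.50 ± 0.07 and -0.51 ± 0.05. The largest adjusted p among these 18 tests of 9 genes in 2 groups was 0.000107, for Cd3e in responders.

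With a further demand of a fold change of at least 1.5, only Cd3d remained called in responders and Cd3d and Cd3g in non-responders. Within the mice with 3-digit numbers, 8 of the 9 genes were called lower on Day 9 in the 4 responders and 9 in the 23 non-responders, beside 6.94% and 53.8% of all genes called in either direction. Within those with 4-digit numbers 9 were called in each group, beside 17.3% in responders and 14.3% in non-responders. On the deposited TPM scale, tested with limma on log2(TPM + 1), all 9 genes were again lower in both groups, with all 9 called in non-responders and only Cd3d called in responders (adjusted p = 0.049), beside 20.8% and 3.76% of genes called in either direction.

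Other transcripts of the receptor pathway were grouped by role, and their counts stand beside the same 14.2% of genes called lower in responders and 27.5% in non-responders. Of 4 receptor constant genes tested, Trac, Trbc1, Trbc2 and Trdc, all 4 fell by Day 9 in both groups, with Trac at -0.63 ± 0.10 in responders and -0.67 ± 0.06 in non-responders. Of 21 further adaptors, kinases and effectors, 10 fell and 0 rose in responders, and 17 fell and 2 rose in non-responders, with a list median of -0.15 and -0.23. The 2 that rose in non-responders were Lcp2 (0.13 ± 0.05), the adaptor SLP-76, and Fyb (0.11 ± 0.05), which had 0.01 and 0.09 in responders without passing. Skap1, an adaptor of integrin activation, changed by -0.56 ± 0.10 in responders and -0.60 ± 0.06 in non-responders. Of 17 negative regulators of the receptor, 7 fell in responders and 12 fell and 1 rose in non-responders, with Cd6 at -0.46 ± 0.07 and -0.56 ± 0.05 and the riser Pag1 at 0.11 ± 0.04 in non-responders. Lcp2, Fyb and Pag1 were named after their values were seen. Of 10 coreceptor and costimulatory genes, 7 and 8 fell, among them Cd4 at -0.71 ± 0.10 and -0.70 ± 0.06. Of 8 T cell identity factors, 5 and 8 fell, with Ccr7, the lymph node homing receptor, at -0.51 ± 0.07 and -0.52 ± 0.05.

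Markers of other blood cells moved in the same interval, in which 1694 of 12560 genes were called higher in responders and 3030 of 13009 in non-responders. Of 10 B cell markers, 7 fell in responders and 10 in non-responders, and their summed CPM ranged from 561 to 892 on Day 4 and, on Day 9, from 427 to 589.8 in responders, and from 588 to 972 and from 435 to 671 in non-responders. Of 8 monocyte markers, 4 rose in responders and 8 in non-responders, with sums of 91.6 to 233 on Day 4 and 166 to 381 on Day 9 in responders and 93.5 to 186 and 156 to 399.7 in non-responders. Of 10 neutrophil markers, 6 and 9 rose, with sums of 179.6 to 532 and 251 to 569.8 in responders and 129 to 341 and 229 to 701 in non-responders. The B cell markers thus moved the way of the 9 genes, and the monocyte and neutrophil markers the other way. Of 8 natural killer cell markers, 1, Klrb1c, fell in each group, with sums of 29.2 to 77.0 and 31.7 to 51.0 in responders and 22.1 to 73.7 and 25.5 to 52.5 in non-responders. Platelet markers fell for 1 of 10 genes in responders, where the sums were 419 to 2456 and 305.6 to 1014, and for 9 of 10 in non-responders, where they were 292 to 2258 and 295 to 835. Red cell precursor markers rose for 1 of 8 in responders (5750 to 51391 and 9481 to 31134) and 7 of 8 in non-responders (3935 to 22892 and 4702 to 21646). No marker of these 6 lists was at 0 in all libraries of a group. The part of these shifts in the fall of the 9 genes was not tested.

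**Figure D2:**
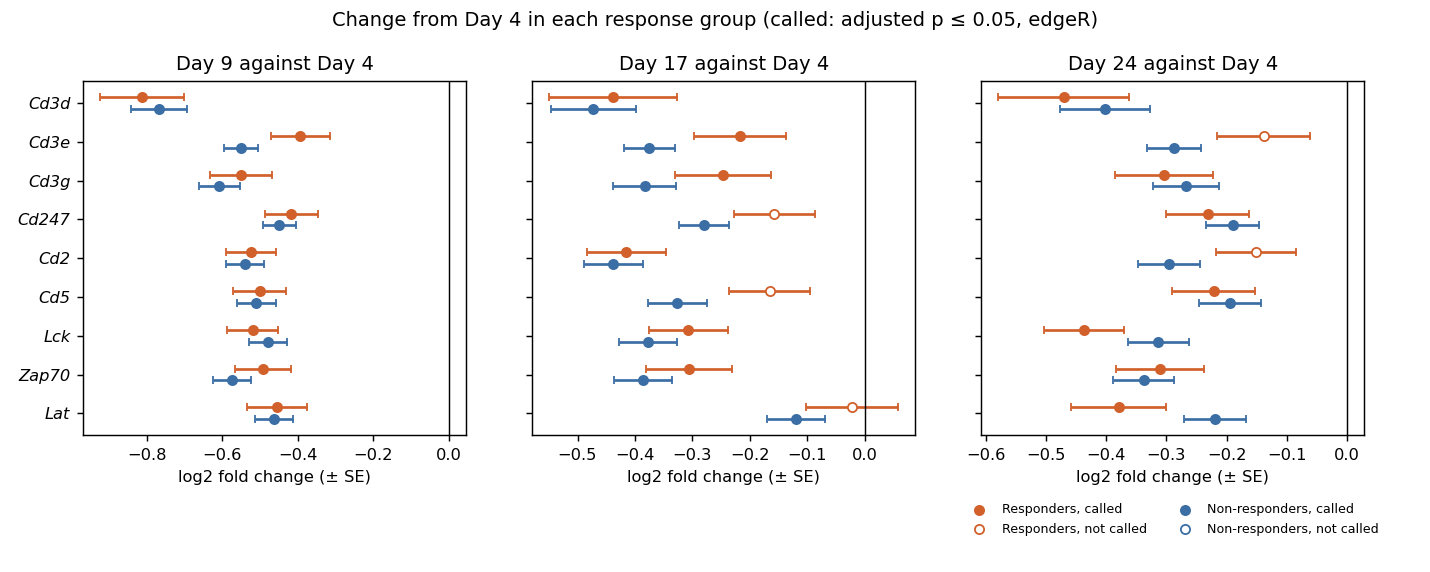
Log2 fold change ± SE from Day 4 of each gene on Days 9, 17 and 24 (edgeR), in responders (orange) and non-responders (blue); filled points had an adjusted p of at most 0.05. All points of Day 9 lie below 0, from -0.39 to -0.81 in responders, and on Day 17 Lat in responders lies at -0.02.

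The next question was whether the fall lasted. From Day 9 to Day 17 the genes rose in part. In responders 6 of 9 were called higher, beside 1.85% of all genes, and in non-responders 7 of 9 were called higher, beside 10.3%. The adaptor Lat had the largest rise. Its log2 CPM in responders ran from 3.16 to 3.72 on Day 9 and, on Day 17, from 3.70 to 4.36, so that these ranges barely touched, and it was higher on Day 17 in 14 of 14 responders and 29 of 30 non-responders. The log2 fold change of Lat was 0.43 ± 0.08 in responders (edgeR adjusted p = 0.00036) and 0.34 ± 0.05 in non-responders (adjusted p = 2.98e-08). Cd5 rose by 0.34 ± 0.07 and 0.18 ± 0.05, Cd3d by 0.38 ± 0.11 and 0.30 ± 0.07, Cd3g by 0.30 ± 0.08 and 0.23 ± 0.05, and Cd247 by 0.26 ± 0.07 and 0.17 ± 0.04. Lck passed in responders at an adjusted p of 0.0497 by edgeR (0.21 ± 0.07) and had 0.10 ± 0.05 in non-responders (adjusted p = 0.121). Cd3e and Zap70 rose in non-responders, each by 0.18 to 0.19, and had 0.18 and 0.19 in responders without passing. Cd2 did not pass in either group, with 0.11 ± 0.07 and 0.10 ± 0.05.

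This rise depended on the scale and on the mice. On log2(TPM + 1) none of the 9 genes was called in either group by limma, beside 0.335% of genes for responders and 49.0% for non-responders, and in non-responders all 9 log2 fold changes had the opposite sign, with a median of -0.11, while the median over all genes was -0.21 on that scale. Relative to that median 8 of the 9 genes were higher. Within non-responders, 7 genes were called higher among the 7 mice with 4-digit numbers (median 0.39) and 2, Cd3d and Lat, among the 23 with 3-digit numbers (median 0.12), beside 6.39% and 26.3% of genes called in either direction. Within responders, 5 genes were called among the 11 mice with 4-digit numbers, beside 5.42%, and 0 among the 4 with 3-digit numbers, beside 1.57%. Over the same days the monocyte markers fell, 6 of 8 in responders and 8 of 8 in non-responders, beside 462 of 12560 and 2101 of 13009 genes called lower. In non-responders natural killer cell markers also fell for 6 of 8 and neutrophil markers for 4 of 10, while platelet markers rose for 6 of 10 and B cell markers for 2 of 10, the way of the 9 genes. In responders 1 neutrophil marker fell, and the natural killer cell, B cell, platelet and red cell precursor lists had 0 called. In non-responders the summed CPM of platelet markers was 295 to 835 on Day 9, against 320.1 to 1468 on Day 17. The part of these lists in the rise of the 9 genes was not tested.

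On Day 17 the levels were still under those of Day 4 for most of the genes. In non-responders all 9 were called lower, beside 24.2% of all genes, from -0.12 ± 0.05 for Lat to -0.47 ± 0.07 for Cd3d. The call of Lat rested on an adjusted p of 0.0457 by edgeR and was lost with DESeq2 (adjusted p = 0.0642). In responders 6 were called lower, beside 13.4%, namely Cd3d at -0.44 ± 0.11, Cd2 at -0.41 ± 0.07, Lck and Zap70 at -0.31 ± 0.07 each, Cd3g at -0.25 ± 0.08 and Cd3e at -0.22 ± 0.08. With the mouse as a block in the fit, Cd247 (-0.17, adjusted p = 0.025) and Cd5 (-0.18, adjusted p = 0.0289) passed in responders as well. On log2(TPM + 1), limma called 0 of the 9 genes in responders, beside 0.559% of genes in either direction, and Lck had the opposite sign there, at 0.03. In non-responders it called all 9 lower, beside 71.9%. Lat in responders was at -0.02 ± 0.08 by edgeR, with a 95% interval of -0.18 to 0.13. Its log2 CPM had a median of 3.86 on Day 4 and 3.88 on Day 17, and it was lower in 6 and higher in 8 of 14 responders.

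Marker lists of other cells moved between Days 4 and 17 as well, when 1528 of 12560 genes were called higher in responders and 2852 of 13009 in non-responders. B cell markers were lower on Day 17 for 8 of 10 genes in each group, with summed CPM of 418 to 677 in responders and 463 to 719 in non-responders on that day. Neutrophil markers were higher for 7 of 10 and lower for 1 in each group (224 to 749 and 167 to 1151). Natural killer cell markers were lower for 1 of 8 in responders (26.1 to 48.9) and 7 of 8 in non-responders (21.0 to 49.4), red cell precursor markers higher for 1 of 8 (4762 to 27737) and 7 of 8 (6503 to 29028), and monocyte markers higher for 1 and lower for 1 of 8 in responders (80.8 to 198) and higher for 3 of 8 in non-responders (108 to 216). Platelet markers had 0 of 10 called in either group (377 to 1224 and 320.1 to 1468). The B cell list, and in non-responders the natural killer cell list, thus moved the way of the 9 genes, and the part of these lists in their values was not tested.

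The values for Day 17 differed between the number series. Among the 23 non-responders with 3-digit numbers all 9 genes were called lower than on Day 4, with a median of -0.48, whereas among the 7 with 4-digit numbers none was called lower, the median was -0.06 and Lat was called higher (0.29 ± 0.09, edgeR adjusted p = 0.0333). Among responders, 4 genes were called lower in the 11 mice with 4-digit numbers (median -0.23) and 0 in the 4 with 3-digit numbers (median -0.39). In either direction, 51.4% of genes were called in the non-responders with 3-digit numbers and 12.7% in those with 4-digit numbers, and in responders 0% and 19.8%. The difference between the series itself was not tested.

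By Day 24 all 9 genes were still called lower than on Day 4 in non-responders, beside 24.8% of genes, from -0.19 ± 0.04 for Cd247 to -0.40 ± 0.07 for Cd3d. In responders 7 were called lower, beside 9.94%, with Cd3d at -0.47 ± 0.11, Lck at -0.44 ± 0.07 and Lat at -0.38 ± 0.08. Lck was lower on Day 24 than on Day 4 in 15 of 15 responders. Cd3e and Cd2 did not pass in responders, with -0.14 ± 0.08 (edgeR adjusted p = 0.21) and -0.15 ± 0.07 (adjusted p = 0.104). Natural killer cell markers fell over the same interval for 8 of 8 genes in each group, with summed CPM of 29.2 to 77.0 on Day 4 and 18.5 to 32.1 on Day 24 in responders and 22.1 to 73.7 and 11.4 to 40.3 in non-responders. Platelet markers fell for 4 of 10 in responders (296 to 1077 on Day 24) and 10 of 10 in non-responders (191 to 1954). B cell markers fell for 2 and rose for 3 of 10 in responders (559 to 794) and fell for 5 of 10 in non-responders (198 to 714). Monocyte markers fell for 2 of 8 in responders (87.0 to 161) and, in non-responders, fell for 3 and rose for 2 (89.9 to 302.1). Neutrophil markers had 1 higher and 1 lower of 10 in responders (165 to 431) and 4 higher in non-responders (134 to 522), and red cell precursor markers rose for 1 of 8 (9919 to 39062) and 8 of 8 (7926 to 236014). Over all genes, 934 of 12560 were called higher in responders and 3100 of 13009 in non-responders. The part of these lists in the values of the 9 genes was not tested. Among non-responders with 4-digit numbers none of the 9 genes was called (median -0.17), beside 3.96% of genes, and among responders with 3-digit numbers none was either (median -0.24), beside 0%, while the signs stayed negative for all 9 in both subsets. On log2(TPM + 1) all 9 were called lower in non-responders, where 82.0% of genes were called in either direction, and 0 in responders, where 0.470% were.

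Between Days 17 and 24, 2 of the 9 genes were called in responders and 1 in non-responders. In responders, where 18.9% of all genes were called in either direction, Cd2 rose by 0.26 ± 0.07 (edgeR adjusted p = 0.00381) and Lat fell by 0.36 ± 0.08 (adjusted p = 0.000841). Lat thus rose by Day 17 and returned by Day 24 to a range of 3.15 to 3.86 log2 CPM, near that of Day 9. In non-responders, where 21.2% of genes were called, Cd2 rose by 0.14 ± 0.05 (adjusted p = 0.0344), and Lat had -0.10 ± 0.05 (adjusted p = 0.153). Cd5 in non-responders missed the threshold with 0.13 ± 0.05 (adjusted p = 0.0524) and passed it with the mouse as a block (0.13, adjusted p = 0.04), with DESeq2 and without the library of non-responder 29. On log2(TPM + 1), limma called none of the 9 genes in either group over this interval. B cell markers rose over the same interval for 8 of 10 genes in responders and 4 of 10 in non-responders, with summed CPM of 418 to 677 on Day 17 and 559 to 794 on Day 24 in responders and of 463 to 719 and 198 to 714 in non-responders. Natural killer cell markers fell for 6 of 8 in responders and 7 of 8 in non-responders, monocyte markers for 3 and 5 of 8, neutrophil markers for 6 (with 1 higher) and 4 of 10, and platelet markers for 1 and 9 of 10, while red cell precursor markers rose for 0 and 2 of 8. The B cell list thus moved the way of Cd2 and the other lists that fell the way of Lat, and their part in either change was not tested. The number series differed in these counts. Among the 23 non-responders with 3-digit numbers 6 of 9 genes were called higher (median 0.15), beside 14.9% of genes called in either direction, whereas among the 7 with 4-digit numbers 1 was called lower and 0 higher (median -0.09), beside 8.49%. Among responders 1 was called higher and 2 lower with 4-digit numbers, beside 21.6%, and 0 with 3-digit numbers, beside 0.0394%.

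The main question of the study's design is whether the response groups differed. By edgeR, none of the 9 genes was called between responders and non-responders on any of the 4 days, beside 7.42%, 13.4%, 1.99% and 8.55% of all genes called on Days 4, 9, 17 and 24. At an unadjusted p under 0.05 the counts were 0, 0, 4 and 0 of 9 on these days, beside 20.7%, 25.1%, 20.6% and 24.3% of all genes, and DESeq2 called 0 on each. On Day 4, Cd3d ran from 2.92 to 4.31 log2 CPM in responders and from 2.95 to 4.43 in non-responders, ranges that nearly coincide. Its log2 fold change of responders against non-responders was 0.12 with an approximate 95% interval of -0.14 to 0.39. The intervals of the other 8 genes lay within -0.25 and 0.26. That of Cd3e, at -0.253 to -0.0025, left out 0, although the test itself did not pass (edgeR, unadjusted p = 0.0514). On Day 9 the 9 log2 fold changes lay between -0.02 and 0.08, and on Day 24 between -0.09 and 0.11.

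Day 17 had the largest differences. Lat was 1.13-fold higher in responders (log2 fold change 0.18 ± 0.07, edgeR adjusted p = 0.128), running from 3.70 to 4.36 log2 CPM with a median of 3.88 in responders and from 3.34 to 4.28 with a median of 3.69 in non-responders. Lck had 0.15 ± 0.06 (adjusted p = 0.166), Cd5 0.15 ± 0.07 (adjusted p = 0.19) and Cd3g 0.13 ± 0.06 (adjusted p = 0.24). These 4 genes were those with an unadjusted p under 0.05, and the groups overlapped widely for each. Among the mice with 4-digit numbers the 9 log2 fold changes on Day 17 had a median of -0.05, and 2 of 9 were above 0. Among those with 3-digit numbers the median was 0.11 and 8 of 9 were above 0. No gene was called in either series on any day, nor with the series as a covariate, where the lowest adjusted p was 0.0763, on Day 4.

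**Figure D3:**
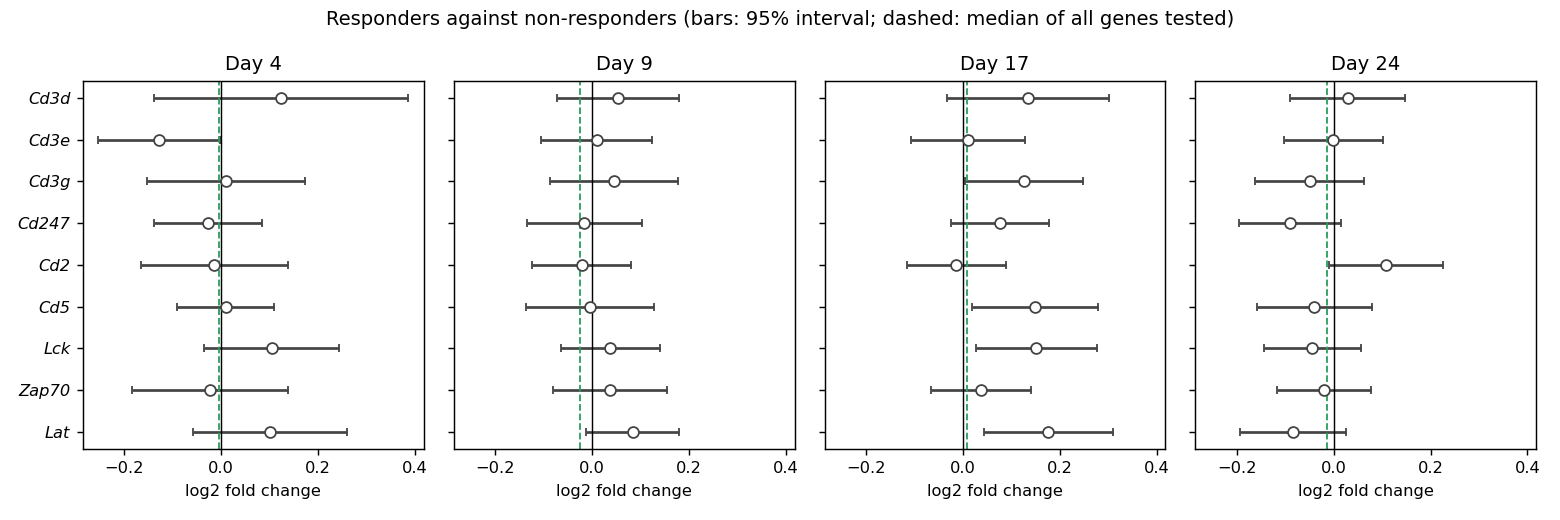
Log2 fold change of responders against non-responders for each gene on each day (edgeR), with the approximate 95% interval as a bar and the median of all genes tested as a dashed line. No gene had an adjusted p of at most 0.05, and on Day 17 the points for 8 of 9 genes lie above 0, up to 0.18 for Lat.

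The change from Day 4 was compared between the response groups in 1 model. The interaction of response and day called 0 of the 9 genes on Days 9, 17 and 24, beside 0%, 0.351% and 3.76% of 13688 genes, and 0 of 9 had an unadjusted p under 0.05 on any of these days, beside 5.25%, 10.2% and 18.4% of all genes. DESeq2 called 0 as well, whereas limma on log2(TPM + 1) called 3 of 9 on Day 24, each higher, beside 41.5% of genes, with a median of 0.44 for the 9 genes and 0.38 for all genes, and 0 on Days 9 and 17. The difference of the changes nearest to a call was that of Lat on Day 24, at -0.17 ± 0.09 (edgeR adjusted p = 0.315), with a 95% interval of -0.35 to 0.01. On Day 17 all 9 differences were above 0, from 0.01 for Cd2 to 0.15 for Cd5, and none passed. This model pooled the number series and was not repeated within them. As given above, the median Day 17 change was lower in responders than in non-responders with 4-digit numbers, and higher with 3-digit numbers. Responders and non-responders are compared on Day 4 libraries in each test of the interaction, so the 3 differences share those values.

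The outcome of the response comparison turned on the scale. In the deposited TPM, all 9 genes were lower in responders on Day 4 and Day 9, and limma on log2(TPM + 1) called all 9 on both days, with medians of -0.63 and -0.53. On that scale 91.1% and 92.7% of all genes were called on these days, with medians over all genes of -0.45 and -0.43, so that the 9 genes lay 0.18 and 0.10 below the median gene. Haemoglobin genes took 83.0% ± 4.1 (SD, n = 15) of counts in responders and 77.8% ± 5.2 (n = 29) in non-responders on Day 4, and 82.7% ± 3.3 and 78.2% ± 3.7 on Day 9. The part of the haemoglobin share in the TPM result was not tested.

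The ratio of a gene to Cd3e within 1 library does not use the scaling factor of the library, and it gives the level of a gene relative to that subunit. On Day 4 the ratios to Cd3e were higher in responders for all 8 other genes. In a 2-sided permutation test over mice with 100000 resamples, 4 of 8 passed after adjustment over 32 ratios. Lck had a log2 count ratio of 1.62 in responders and 1.38 in non-responders, a difference of 0.24 (adjusted p = 0.0141). Lat differed by 0.23 (adjusted p = 0.0327), Cd5 by 0.15 and Cd247 by 0.11 (adjusted p = 0.0494 each). The largest difference on Day 4 was that of Cd3d, at 0.27, which did not pass (permutation test, adjusted p = 0.083). On Day 17, 3 of 8 passed, with Lat higher in responders by 0.16 (adjusted p = 0.0385), Lck by 0.14 (adjusted p = 0.0158) and Cd5 by 0.14 (adjusted p = 0.0303). On Days 9 and 24 none passed, with differences from -0.03 to 0.08 and from -0.08 to 0.14. These calls were lost without the libraries with the most haemoglobin. The 4 highest Lck ratios on Day 4, at 1.85, 1.90, 2.10 and 2.11, were those of the 4 responders whose haemoglobin share was above 86%, at 87.0% to 87.8%, with TMM factors of 0.266 to 0.465, and the highest in non-responders, at 1.73 and 1.77, came with shares of 87.4% and 85.2%. With all libraries above 86% left out, 11 responders and 28 non-responders remained on Day 4, the differences were 0.12 for Lck (permutation test, adjusted p = 0.159), 0.08 for Lat (adjusted p = 0.529), 0.05 for Cd5 and 0.08 for Cd247, and none of the 8 ratios passed. On Day 17, with 13 and 28 libraries left, Lat differed by 0.16 (adjusted p = 0.0827) and Lck and Cd5 by 0.13 each (adjusted p = 0.0597), and none passed either. The reference gene Cd3e itself had a log2 fold change of -0.13 ± 0.06 on Day 4 (edgeR adjusted p = 0.246) and 0.01 ± 0.06 on Day 17. On Day 4, red cell precursor markers were called higher in responders for 7 of 8. Neutrophil markers were higher for 4 of 9, monocyte markers for 1 of 8, and B cell markers lower for 2 of 10. All genes gave 808 higher and 128 lower of 12620. On Day 17, neutrophil markers were higher for 3 of 10, platelet markers for 1 of 10, and B cell markers lower for 2 of 10. All genes then gave 100 and 149 of 12520. The part of these lists in the ratios was not tested.

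Within the number series the same ratios had the same sign on Day 4 but did not pass. Lck differed by 0.27 among the mice with 4-digit numbers (exact permutation test, adjusted p = 0.18) and by 0.20 among those with 3-digit numbers (adjusted p = 0.412), and Lat by 0.25 and 0.22. On Day 17 none passed within a series either. The difference of Lck was 0.09 with 4-digit numbers (exact permutation test, adjusted p = 0.448) and 0.08 with 3-digit numbers (adjusted p = 0.412), both below the pooled 0.14. Lat had 0.03 (adjusted p = 0.843) and 0.16 (adjusted p = 0.412), and Cd5 had 0.17 in each (adjusted p = 0.25 and 0.382). With ratios taken from the deposited TPM, Lck and Lat passed on both days, whereas Cd5 and Cd247 on Day 4 and Cd5 on Day 17 did not. In Cd247 the bases shared with Pou2f1 also enter the ratio. On Day 4, where the Cd247 ratio passed, Pou2f1 had a log2 fold change of responders against non-responders of -0.24 ± 0.11 (edgeR adjusted p = 0.18), and it was lower in responders on Day 9 (-0.18 ± 0.06, adjusted p = 0.0275) and on Day 17 (-0.33 ± 0.06, adjusted p = 0.00809).

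**Figure D4:**
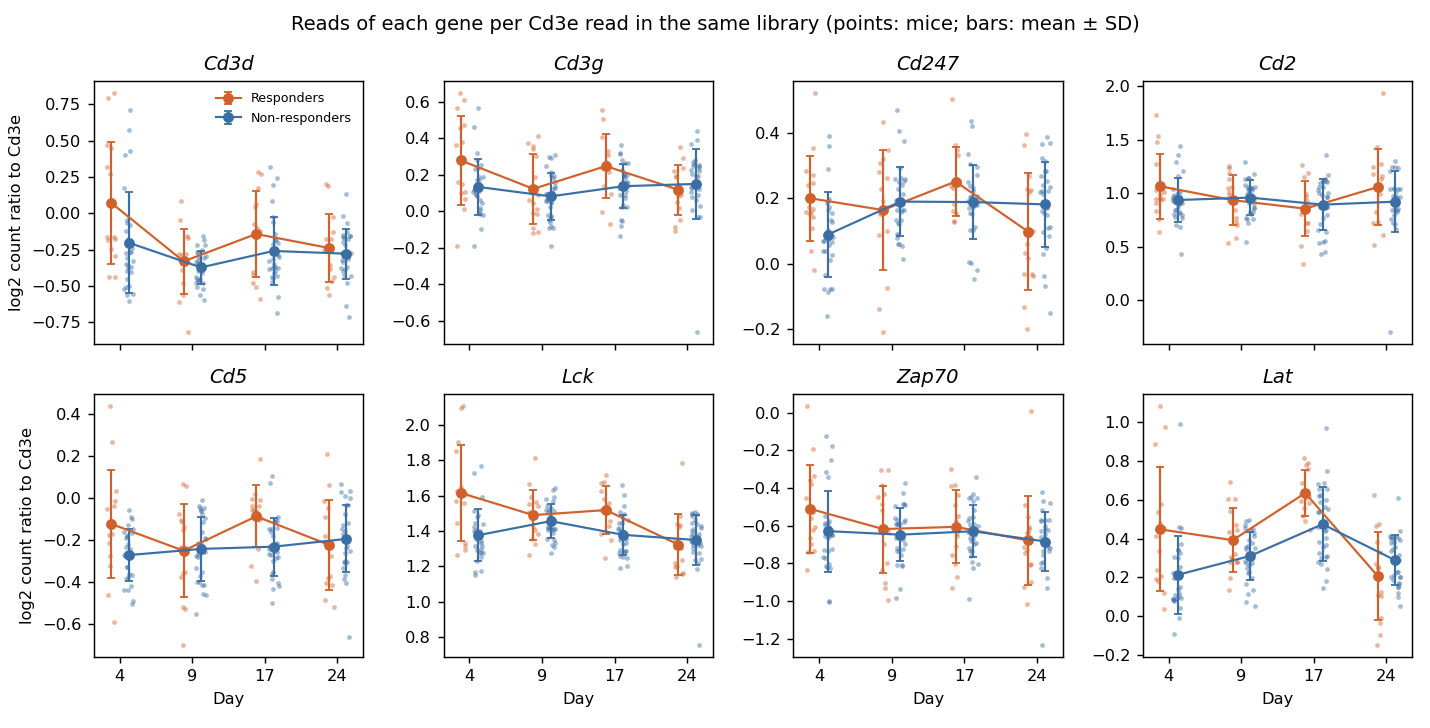
Log2 ratio of the counts of each gene to those of Cd3e in the same library, by day, for responders (orange) and non-responders (blue); small points are mice, and large points with bars are the mean ± SD. Lck lies at 1.62 in responders and 1.38 in non-responders on Day 4, and the Lat ratio is at its highest on Day 17 in both groups.

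Followed within mice, 1 of the 48 changes of a ratio to Cd3e passed, that of Lat. In non-responders its ratio to Cd3e rose from 0.21 on Day 4 to 0.48 on Day 17, by 0.27 ± 0.28 (SD, n = 29 mice), with a higher value in 23 of 29 mice (2-sided sign-flip permutation test, p = 4e-05, adjusted p = 0.00192 over 48 ratios). In responders the same ratio rose by 0.22 ± 0.32 in 11 of 14 mice and did not pass (permutation test, adjusted p = 0.121). It passed there with deposited TPM ratios, by 0.28 ± 0.31 (adjusted p = 0.0409), and without the libraries above 86% haemoglobin, by 0.35 ± 0.16 in 10 of 10 mice (adjusted p = 0.0427). In non-responders without those libraries it rose by 0.28 ± 0.28 in 22 of 26 mice (adjusted p = 0.00288). In the non-responders with 4-digit numbers it rose in 7 of 7 mice, by 0.42 ± 0.20. The exact permutation p of 0.0156, the smallest possible with 7 mice, did not pass after adjustment (adjusted p = 0.312). In the non-responders with 3-digit numbers the ratio rose by 0.22 ± 0.29 in 16 of 22 (permutation test, adjusted p = 0.0418). Of the other count ratios none passed in either group on Day 9, 17 or 24. With ratios of the deposited TPM more passed. In non-responders Lck, Cd247 and Lat were higher on Days 9 and 17 than on Day 4, with Lck higher by 0.14 on Day 9 in 25 of 29 mice (permutation test, adjusted p = 0.00192). In responders, Cd3d was lower on Day 9, by 0.43 in 12 of 15 mice (adjusted p = 0.0268), Cd247 was higher on Day 17 beside Lat, and Cd3d and Lck were lower on Day 24. The count ratios nearest to a call were Cd247 in non-responders on Day 9, higher by 0.10 in 20 of 29 mice (adjusted p = 0.0626), and Cd3d in responders on Day 9, lower by 0.40 in 11 of 15 mice, Lck in responders on Day 24, lower by 0.29 in 12 of 15 mice, and Cd247 in non-responders on Day 17, higher by 0.10 in 21 of 29 (adjusted p = 0.0659 each, permutation tests).

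Across libraries the levels of the 9 genes were positively correlated, to unequal degrees. After the mean of each day and response group was taken off, Pearson correlations of log2 CPM between pairs of genes over 178 libraries ran from 0.16 to 0.78. Cd3g and Cd247 had the highest, at 0.78, followed by Cd3g with Lck at 0.75 and Cd3d with Cd3g at 0.75. Cd3d and Cd3e, whose products pair in a CD3 dimer, had 0.48. Against the mean of the other 8 genes, Cd3g had 0.88 and Lck 0.86, while Cd2 had 0.50. The pairs of Cd2 ran from 0.16 with Cd3e to 0.60 with Cd3d, and 5 of them were the lowest of all pairs. These values are descriptions. All libraries share the scaling, and libraries of 1 mouse share their animal.

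**Figure D5:**
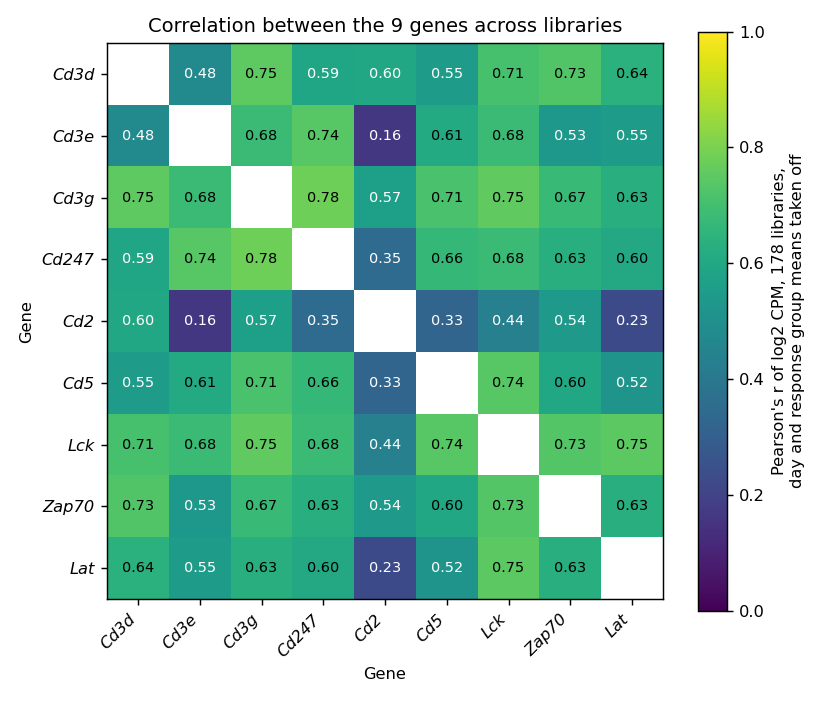
Pearson correlation of TMM-scaled log2 CPM between the 9 genes over 178 libraries, with the mean of each day and response group taken off. Values run from 0.16 for Cd2 with Cd3e to 0.78 for Cd3g with Cd247, and the 5 lowest values are pairs of Cd2.

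The 10 other genes whose levels were most like the mean of the 9, by the same correlation over 178 libraries, were Trbc2 at 0.89, Trac at 0.89, Thy1 at 0.87, Cd4 at 0.85, Cd8b1 at 0.84, Atp1b3 at 0.81, Saraf at 0.80, Cd6 at 0.79, Skap1 at 0.79 and Trbc1 at 0.79. Among them are 3 constant genes of the T cell receptor and both the CD4 and the CD8 beta coreceptor. The same 10 genes were found without the libraries in doubt of non-responders 24 and 29. Over all 13688 genes the median correlation was -0.00, and the 99th percentile was 0.51. Taken gene by gene, the nearest were Trbc2 for Cd3d (0.86) and Cd3g (0.86), Cd8a for Cd3e (0.74), Cd3g for Cd247 (0.78), Cd6 for Cd5 (0.77), Thy1 for Lck (0.80) and Zap70 (0.76), and Prkcq, the kinase that links the receptor to NF-κB, for Lat (0.76). For Cd2 they were the B cell receptor genes Cd79b (0.85) and Cd79a (0.84), and no other of the 9 genes was among its nearest 5. By this measure the level of Cd2 followed B cell genes more closely than the other receptor genes, and which cells carried it was not measured.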

How the data were processed

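Whole blood was taken by retro-orbital bleed into TRIzol, and polyadenylated RNA was sequenced. The authors aligned reads with STAR to mm10, per the labels, and deposited estimated counts per gene and TPM values for 178 libraries; the counter and its strand setting are not given in the sources used here. Total counts were 26058944 to 82208651 per library.

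Counts were rounded, filtered with filterByExpr, scaled by TMM and tested with the quasi-likelihood test of edgeR 4.0.16 in R 4.3.3, with Benjamini-Hochberg adjustment over all genes tested and a threshold of 0.05. Each day was fitted alone for the response comparison, each response group over its 4 days, and all libraries for the difference of changes, 17 comparisons in all. Log2 CPM used a prior count of 2, and ratios to Cd3e a pseudocount of 0.5. Alternatives were DESeq2 1.42.0, no filter, haemoglobin genes removed before scaling, a fold change of 1.5, limma 3.58.1 on the deposited TPM with a pseudocount of 1 or 0.1 and a mean of at least 1 TPM, the doubtful libraries left out or relabelled, the number series as a covariate, and the mouse as a block. Time and ratio results within each number series, and ratios without the libraries above 86% haemoglobin, were added after the data were seen. Scripts were tested on simulated data.

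Titles tie the libraries of 1 mouse together. The median correlation of same-mouse deviations was 0.03 in non-responders and 0.07 in responders, against -0.01 between mice in both groups. The genes and lists were chosen with earlier results of these data known. All 9 genes were named in every comparison, with the 10 genes most like their mean and up to 3 genes per list by smallest p.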

Additional observations from a re-analysis of the deposited data

How the results depend on the processing

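Of 703 values for single genes under alternatives other than the demand of a 1.5-fold change, covering 73 gene results, 685 had the direction of the reported value, 138 of these were no longer past the threshold, and 18 had the opposite direction. Where no cause is named, the cause was not tested. The demand of a 1.5-fold change took the call from 62 of 65 single-gene results it applied to and left 1 gene lower on Day 9 in responders and 2 in non-responders, and 0 genes in the comparisons of Days 17 and 24 with Day 4, of Day 17 with Day 9 and of Day 24 with Day 17 in both groups. On deposited TPM, with either pseudocount, limma called 9 genes between response groups on Days 4 and 9, 3 for the difference of changes on Day 24, 1 for responders on Day 9 and 0 for responders in the other 4 comparisons between days, and 0 in non-responders from Day 9 to Day 17 and from Day 17 to Day 24. Within 3-digit numbers, 0 genes were called in responders in those 4 comparisons, and in non-responders 2 rose from Day 9 to Day 17 and 6 from Day 17 to Day 24. Within 4-digit numbers, 0 were called lower in non-responders on Days 17 and 24. From Day 17 to Day 24 in non-responders, 2 genes were called with DESeq2, without the filter, without the library of non-responder 29, with the Day 17 library of non-responder 24 as labelled or left out, and with the mouse as a block. The block moved the count for responders on Day 17 against Day 4 from 6 to 8, and apart from these 2 comparisons it changed no count of called genes. Without the filter, responders had 5 genes called in place of 6 on Day 17 against Day 4, 5 in place of 7 on Day 24 against Day 4 and 5 in place of 6 from Day 9 to Day 17.

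Opposite directions on log2(TPM + 1) and log2(TPM + 0.1), in non-responders from Day 9 to Day 17, were -0.0388 and -0.0524 for Cd3d, -0.14 and -0.18 for Cd3e, -0.11 and -0.12 for Cd3g, -0.14 and -0.18 for Cd247, -0.10 and -0.15 for Cd5, -0.10 and -0.14 for Zap70, and -0.0198 and -0.0215 for Lat. Lck in responders had 0.0312 and 0.0484 on Day 17 against Day 4, and -0.0252 from Day 9 to Day 17 within 3-digit numbers. Lat in non-responders had 0.29 on Day 17 against Day 4 within 4-digit numbers. Of the ratios to Cd3e between groups, 0 passed in either number series on Days 4 and 17, none passed on those days without the libraries above 86% haemoglobin, and 2 passed on Day 4 with TPM. Within non-responders, 3 passed on Day 9 and 3 on Day 17 with TPM, 1 on Day 9 and 1 on Day 24 without the library of non-responder 29, 1 on Day 9 and 2 on Day 17 without that of non-responder 24, 1 on Day 9 within 3-digit numbers and 0 on Day 17 within 4-digit numbers. Without the libraries above 86% haemoglobin, 1 passed on Day 24 in non-responders (Cd5) and 1 on Day 17 in responders (Lat). Within responders, 1, 2 and 2 passed with TPM on Days 9, 17 and 24. Precision is limited by the 15 responders, by the 4 responders with 3-digit numbers, and by haemoglobin. The library with the fewest counts of other genes held 4535309 of them.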
